A study of Mus musculus with 36 samples.

Results

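The genes described here are 43 members of the TGF-beta and BMP signaling pathways, chosen by symbol from the 52636 genes of the count table: ligands, genes of ligand latency and processing, extracellular or membrane antagonists, receptors, signal-carrying and inhibitory SMADs, and the Id genes. They were compared between perisynaptic Schwann cells (PSCs), the glia that cover the neuromuscular junction, and the cells that share one of their fluorescent labels. Every mouse carried both transgenes, S100β-GFP, in which the S100b promoter drives GFP, and NG2-dsRed, in which the promoter of Cspg4 (the gene of NG2) drives dsRed. Diaphragm, pectoralis, forelimb and hindlimb muscles of untreated juvenile mice, from postnatal day 15 to 21 by the study's methods, were dissociated. FACS then sorted NG2DsRed+/S100GFP+ cells (PSCs), S100GFP+ cells (Schwann cells in the study's naming, S100β-GFP+ cells here) and NG2DsRed+ cells, with 1 mouse for each replicate. Total RNA was amplified with a low-input kit and sequenced, and the table held 9 PSC, 8 S100β-GFP+ and 10 NG2-dsRed+ libraries with 5221655 to 9592875 counts on genes.

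TGF-beta and BMP ligands are secreted dimers that bring type I and type II serine/threonine kinase receptors together. Activated type I receptors phosphorylate SMADs, SMAD2 and SMAD3 for TGF-betas and activins, and SMAD1, SMAD5 and SMAD9 for BMPs, which enter the nucleus with SMAD4. Id1, Id2 and Id3 and the inhibitory SMADs are well-known targets of the BMP branch, TGF-betas are released from cells in a latent complex with LTBP proteins, and follistatin, noggin and gremlin bind ligands outside the cell. In muscle, TGF-beta from Schwann cells has long been studied at the neuromuscular junction, and BMP signals act on satellite cells, vessels and developing glia.

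Markers were read before the pathway genes, because a sorted population is a mixture (the plot of summed markers by library). Expression is given as CPM, counts scaled to 1000000 per library after TMM normalization. Cspg4 and S100b, the mouse genes whose promoters drive the reporters, were checked first. Cspg4 averaged 689 CPM in PSCs, 71.0 in S100β-GFP+ and 665 in NG2-dsRed+ libraries, and S100b averaged 255, 29.4 and 6.54 CPM. The 8 genes of the Schwann cell lineage summed to 2004 to 2931 CPM in PSC libraries, 137 to 499 CPM in S100β-GFP+ libraries and 34.9 to 79.1 CPM in NG2-dsRed+ libraries. Sox10, the transcription factor that defines this lineage, averaged 506 CPM in PSCs and 20.2 CPM in S100β-GFP+ cells. Of the 8 lineage genes, PSCs had 6 higher and 1 lower relative to S100β-GFP+ cells. The 8 markers of myelinating Schwann cells overlapped between these cell types, with sums of 2572 to 3497 CPM (median 2702) in PSC and 1553 to 3736 CPM (median 2871) in S100β-GFP+ libraries, against 306 to 1069.7 CPM in NG2-dsRed+ libraries. PSCs had 1 of these higher and none lower relative to S100β-GFP+ cells, which had all 8 higher than NG2-dsRed+ cells. Fibroblast markers, all 8 of them higher in S100β-GFP+ cells than in PSCs by edgeR's test, summed to 19379.9 to 44188 CPM in S100β-GFP+, 757 to 2888 CPM in PSC and 2685 to 19435 CPM in NG2-dsRed+ libraries. The 8 macrophage and leukocyte markers summed to 1183 to 11053 CPM in S100β-GFP+ libraries against 35.8 to 571 in PSC and 14.5 to 72.2 in NG2-dsRed+ libraries. In S100β-GFP+ libraries median sums were 183 CPM for the Schwann cell lineage, 30491 CPM for fibroblasts and 6327 CPM for macrophages and leukocytes. With the myelinating markers given above, this sorted population is not read here as Schwann cells alone. NG2-dsRed+ libraries were highest in the 10 pericyte and smooth muscle markers (7333 to 15923 CPM, against at most 1675 in any other library). Their 9 endothelial markers summed to 1716 to 3996 CPM. Markers of melanocytes, other neural crest cells that express Sox10, summed to 31.3 to 136 CPM in PSC libraries and at most 21.6 CPM in any other. None of the markers in the 5 plotted lists had 0 counts in a whole cell type. S100β-GFP+ libraries 14, 17 and 22 stood apart with endothelial sums of 969.5 to 3045 CPM against 144 to 228 CPM in the other 5. PSC library 31 had 4427 CPM of chondrocyte and tenocyte markers against at most 40.3 CPM in the other 8, and PSC library 18 was the lowest PSC library for 16 and the highest for 10 of the 43 pathway genes. Library 18 was also the highest PSC library for skeletal muscle fibre markers (1344 CPM, others at most 663) and macrophage markers (571 CPM, others at most 286). What part other cells had in the differences below was not tested, and in sorted bulk RNA fewer cells of a type and less RNA per cell cannot be told apart.

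**Figure D1:**
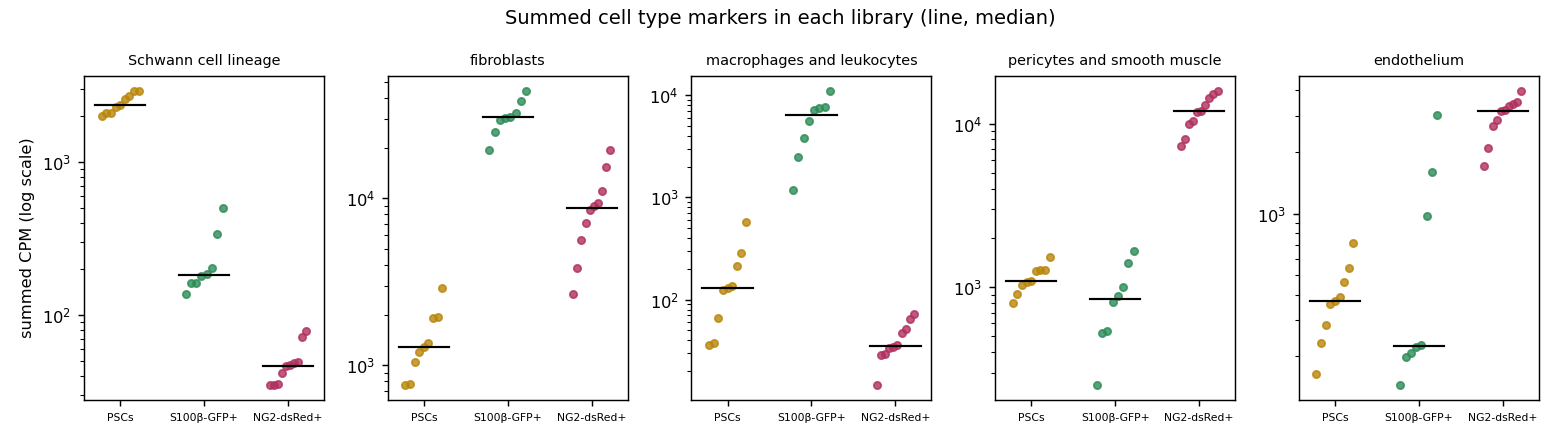
Summed CPM (log scale) of 5 lists of cell type markers, 1 point per library and a line at the median of each cell type. PSC libraries are highest for the Schwann cell lineage, S100β-GFP+ libraries for fibroblasts and macrophages, NG2-dsRed+ libraries for pericytes, and 3 S100β-GFP+ libraries reach 969.5 to 3045 CPM of endothelial markers.

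More pathway genes were lower than higher in PSCs. Of the 43 genes, 40 passed the filter on low counts (Smad9, Nog and Grem1 did not). Against S100β-GFP+ cells 5 were higher in PSCs, 22 lower and 13 not past an adjusted p of 0.05 in edgeR's quasi-likelihood test, with a median log2 fold change of -0.83. Over all 15330 genes tested 47.0% were called in this comparison, 22.9% higher and 24.1% lower in PSCs, with a median of 0.04. In the contrast with NG2-dsRed+ cells PSCs had 3 members higher, 22 lower and 15 past no threshold (median -0.88), where 44.0% of all genes were called, 20.9% higher and 23.1% lower, with a median of 0.02. The 2 comparisons share the PSC libraries, and pairs of log2 values below are in this order, S100β-GFP+ and then NG2-dsRed+ cells. Bmp6 and Acvr1 were higher in PSCs than in either other population (13.9% of all genes were), and 15 members were lower than in both (14.4% of all genes). Inhbb, Bmp2, Bmp5, Gdf10, Smad6 and Fst did not reach the filter through PSCs, and Acvr2b, Bmp5 and Inhbb did not reach it through S100β-GFP+ cells. Bmpr1b and Ltbp2 reached it through no cell type alone. A gene that reached it only through cells where it was high had to differ. The median PSC library was under the filter's 1.44 CPM for 9 of the 43 genes, and 34 were at or over it in the median library of every cell type, so the share of lower genes is given as a description.

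**Figure D2:**
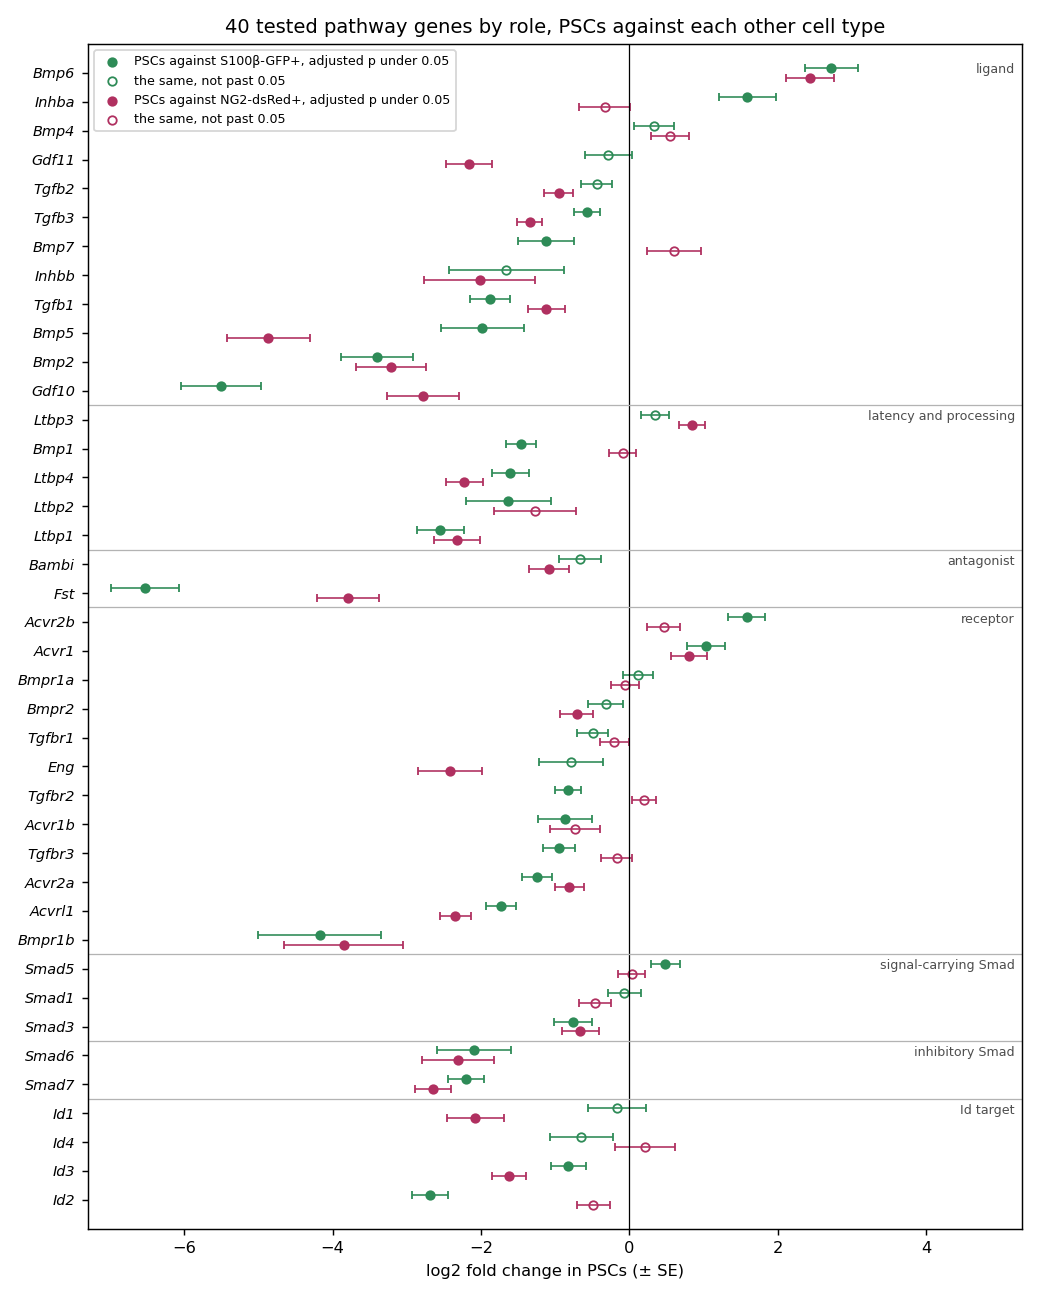
Log2 fold change in PSCs (x axis, ± SE) of the 40 tested pathway genes, grouped by role, relative to S100β-GFP+ cells (green) or NG2-dsRed+ cells (red), with filled points at an adjusted p under 0.05. Bmp6 lies farthest to the right and Fst, Gdf10, Bmpr1b and Bmp2 far to the left in both comparisons.

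Among the 12 ligands, Bmp6 was higher in PSCs than in either other population (13.9% of all genes were). Another 5 (Tgfb1, Tgfb3, Bmp2, Bmp5 and Gdf10) were lower than in both (14.4% of all genes). BMP6 is a secreted BMP best known for control of iron metabolism and for bone formation. Bmp6 (ENSMUSG00000039004, chr13:38345107-38500302, plus strand) had 73.5 to 365 CPM (median 159.5) in PSC libraries, 8.31 to 59.6 CPM (median 30.8) in S100β-GFP+ libraries and 15.4 to 51.4 CPM (median 38.0) in NG2-dsRed+ libraries. The means were 192 ± 90.5 CPM (SD, n = 9), 29.1 ± 17.3 CPM (SD, n = 8) and 35.4 ± 11.4 CPM (SD, n = 10). Every PSC library was above every other library, a separation found in either direction for 15.5% of all tested genes relative to S100β-GFP+ cells and for 13.9% relative to NG2-dsRed+ cells. The log2 fold changes in PSCs were 2.73 (SE 0.35, adjusted p = 2.03e-07) against S100β-GFP+ and 2.44 (SE 0.32, adjusted p = 3.16e-07) against NG2-dsRed+ cells. Lars2, Gm23935 and Gm15564 together took 3.64% to 36.6% of the counts of a PSC library. PSC library 36, with the lowest share, had the lowest Bmp6 level (73.5 CPM) while library 23, with the highest share, had the highest (365 CPM). PSC libraries 6, 18, 23 and 31 had shares of 27.7% to 36.6% and Bmp6 at 209 to 365 CPM. The other PSC libraries had shares of 3.64% to 17.8% and Bmp6 at 73.5 to 159.5 CPM. Melanocyte sums split the same libraries, as given above, while some members, such as Bmp2, overlapped between them. This split was seen in the values and its reason was not tested. With this share as a term in the fit the log2 fold changes were 3.39 and 2.91, and without S100β-GFP+ libraries 14, 17 and 22 they were 3.37 and 2.46. Bmp6 shares 224 exon bases with Txndc5 on the opposite strand, and the sources used here do not say whether strand was used in counting. Txndc5 was lower than in S100β-GFP+ cells (log2 fold change -0.81, adjusted p = 0.0033), and its difference from NG2-dsRed+ cells was 0.09 on the log2 scale (adjusted p = 0.772). The part of this overlap in the Bmp6 counts was not tested.

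Per length of exon, Bmp6 was also the most abundant ligand transcript of PSCs, at 49.2 CPM per kb, followed by Bmp4 at 12.6. With the longest transcript as length these levels were 53.4 and 13.7 CPM per kb, again the highest of the 12 ligands. Bmp6 made up 30.8% to 71.5% (median 49.7%) of the summed ligand CPM per kb in PSC libraries, 2.20% to 15.1% in S100β-GFP+ libraries and 4.20% to 15.2% in NG2-dsRed+ libraries. In S100β-GFP+ libraries Gdf10 (21.7%) and Tgfb1 (20.2%) had the largest median shares and in NG2-dsRed+ libraries Tgfb3 (23.1%). These orders depend on the length taken for Tgfb1: with the longest transcript as length, its mean level was 35.9 CPM per kb against 27.9 for Gdf10 in S100β-GFP+ cells, and 21.2 against 19.4 for Tgfb3 in NG2-dsRed+ cells. The summed ligand CPM per kb itself overlapped between the cell types, at 61.2 to 131 in PSC, 79.4 to 139 in S100β-GFP+ and 83.9 to 102 in NG2-dsRed+ libraries.

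**Figure D3:**
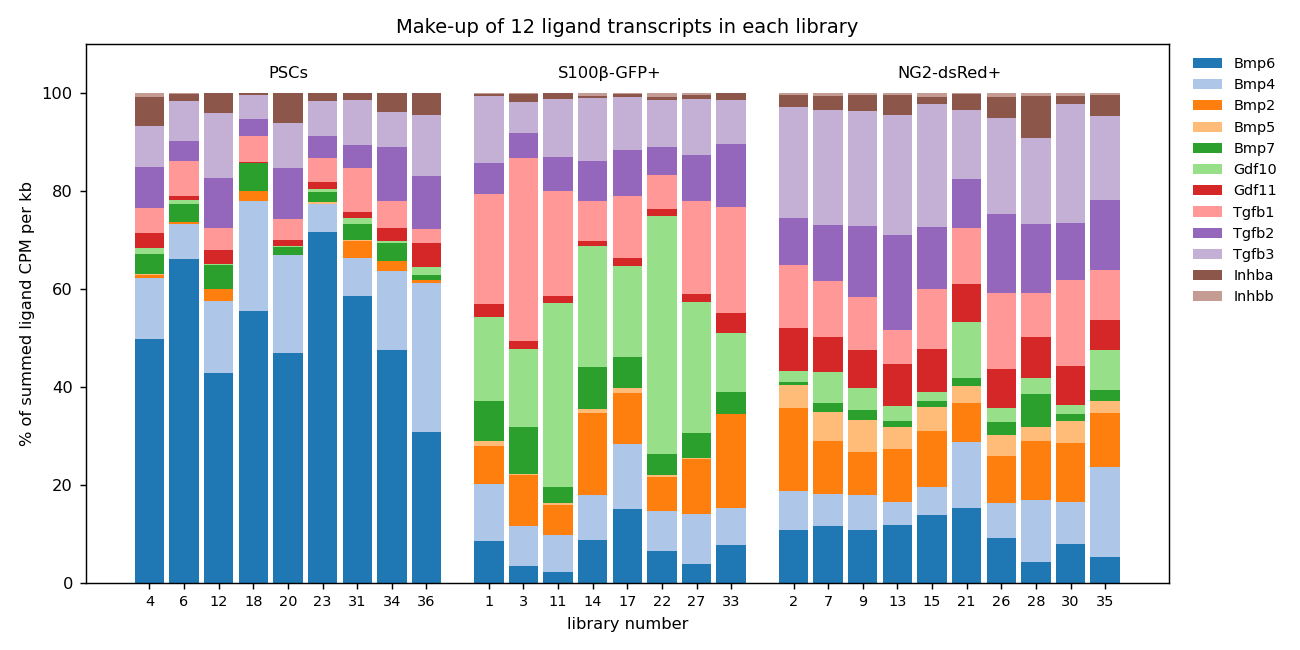
Share of each of 12 ligand transcripts in the summed ligand CPM per kb (y axis, percent) of each library (x axis, library number), by cell type. Bmp6 (dark blue) takes 30.8% to 71.5% of the bar in PSC libraries and at most 15.2% in any other library.

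Gdf10, also called BMP3b, and Bmp2, a strong inducer of bone, were low in PSCs. Gdf10 (ENSMUSG00000021943, chr14:33923587-33937983, plus strand) had 0 to 6.58 CPM (median 3.91) in PSC libraries, 66.6 to 352 CPM (median 123) in S100β-GFP+ libraries and 8.76 to 52.0 CPM (median 15.0) in NG2-dsRed+ libraries. The 3 cell types did not overlap, with PSCs lowest and S100β-GFP+ cells highest. Its log2 fold changes in PSCs were -5.51 (SE 0.54, adjusted p = 1.19e-09) and -2.78 (SE 0.48, adjusted p = 2.39e-05), and without S100β-GFP+ library 22, the highest at 352 CPM, the first was -5.18. Bmp2 (ENSMUSG00000027358, chr2:133552159-133562885, plus strand) had 0.157 to 12.0 CPM (median 1.71) in PSCs against 20.8 to 73.8 CPM (median 35.5) in S100β-GFP+ and 24.6 to 60.0 CPM (median 36.0) in NG2-dsRed+ libraries. All PSC libraries were below all others, and the other cell types overlapped each other. The Bmp2 log2 fold changes were -3.40 (SE 0.49, adjusted p = 1.05e-06) and -3.22 (SE 0.47, adjusted p = 1.93e-06). Fibroblast markers were also lowest in PSCs, with a median sum of 1280 CPM. Their median was higher in S100β-GFP+ (30491 CPM) than in NG2-dsRed+ libraries (8799 CPM), the order seen for Gdf10. The Bmp2 medians of S100β-GFP+ and NG2-dsRed+ libraries were close to each other and did not follow that order. The part of fibroblast RNA in the Gdf10 and Bmp2 differences was not tested.

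Bmp5 was highest in NG2-dsRed+ cells, with 10.4 to 23.5 CPM (median 16.5) in that group, 0.222 to 4.41 CPM (median 2.08) in S100β-GFP+ and 0 to 1.72 CPM (median 0.302) in PSC libraries, and NG2-dsRed+ libraries did not overlap the others. Its log2 fold change in PSCs was -4.87 (SE 0.56, adjusted p = 2.78e-08) against NG2-dsRed+ cells and -1.98 (SE 0.56, adjusted p = 0.00426) against S100β-GFP+ cells, a call that was lost without S100β-GFP+ libraries 14, 17 and 22 (log2 -1.20, adjusted p = 0.118). Gm26903 on the opposite strand shares 1878 of its exon bases. Gdf11, a close relative of myostatin, also did not overlap between NG2-dsRed+ (24.7 to 35.5 CPM, median 29.2) and PSC libraries (0.701 to 12.4 CPM, median 7.51), with a log2 fold change of -2.16 (SE 0.31, adjusted p = 1.15e-06). In S100β-GFP+ libraries it had 4.59 to 18.2 CPM (median 6.71), overlapping the PSC range, with a log2 difference of -0.28 (SE 0.32, adjusted p = 0.486). Bmp4, a ligand of early neural and glial development, was not past the threshold in either comparison, at 17.1 to 48.7 CPM (median 22.3) in PSCs, 14.7 to 30.3 CPM (median 23.8) in S100β-GFP+ and 9.08 to 42.2 CPM (median 16.0) in NG2-dsRed+ libraries (log2 0.34, adjusted p = 0.326 and 0.55, adjusted p = 0.0816). The difference of Bmp4 from NG2-dsRed+ cells passed it when any 1 of 3 libraries was left out (log2 0.67 to 0.82). Bmp7 was lower than in S100β-GFP+ cells (log2 -1.12, adjusted p = 0.016), a call lost without the 3 libraries named above (-0.91), and against NG2-dsRed+ cells its log2 difference of 0.60 (adjusted p = 0.185) became 1.06 (adjusted p = 0.00681) once NG2-dsRed+ library 28 was left out.

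Tgfb1 and Tgfb3 were lower in PSCs than in either other population. Tgfb1 had 8.63 to 44.8 CPM (median 23.2) in PSCs, below every S100β-GFP+ library (49.0 to 149.6 CPM, median 101) and overlapping NG2-dsRed+ libraries (31.3 to 84.3 CPM, median 53.0). Its log2 fold changes were -1.88 (SE 0.27, adjusted p = 9.03e-07) and -1.12 (SE 0.25, adjusted p = 0.000575). In PSC libraries 6, 18, 23 and 31 it was at 25.8 to 44.8 CPM, and in the other PSC libraries at 8.63 to 23.2 CPM. Tgfb1 was lowest in S100β-GFP+ libraries 22, 14 and 17 (49.0, 52.0 and 64.6 CPM), the lowest of that group in macrophage markers, and highest in library 3, the highest in those markers, and their part in the difference was not tested. Tgfb3 was below every NG2-dsRed+ library, at 16.3 to 31.6 CPM (median 26.3) against 41.2 to 79.2 CPM (median 69.5) (log2 fold change -1.34, SE 0.17, adjusted p = 1.7e-07). Against S100β-GFP+ cells Tgfb3 differed on the log2 scale by -0.57 (adjusted p = 0.00941), which was lost without S100β-GFP+ libraries 14, 17 and 22 (log2 -0.34, adjusted p = 0.166) and with the above share of counts as a term (log2 -0.43, adjusted p = 0.0659). Tgfb2 was lower than in NG2-dsRed+ cells alone (log2 -0.95, adjusted p = 0.000246), with a log2 difference of -0.44 (adjusted p = 0.0861) against S100β-GFP+ cells. The activin subunit gene Inhba was the other ligand with a higher level than in S100β-GFP+ cells, at 2.45 to 32.6 CPM (median 17.5) against 2.32 to 9.32 CPM (median 5.07) and a log2 fold change of 1.59 (SE 0.38, adjusted p = 0.00106). That value was 0.91 (adjusted p = 0.0184) with the share of counts as a term. PSC libraries 6, 18, 23 and 31 had 2.45 to 13.3 CPM of Inhba, and the other PSC libraries 17.5 to 32.6 CPM. Inhba was at 7.71 to 51.4 CPM (median 18.0) in NG2-dsRed+ cells, a difference not past the threshold (log2 -0.33, adjusted p = 0.459) that was past it with the same term (log2 -0.82, adjusted p = 0.0169). The second activin subunit, Inhbb, rested on few counts, 45 in 9 PSC libraries, of which library 4 alone was at 2.68 CPM and the others at most 0.605 CPM. Its log2 fold change was -2.02 (SE 0.74, adjusted p = 0.0282) against NG2-dsRed+ cells, and without PSC library 4 it was -3.40 there and -3.08 (adjusted p = 0.00165) against S100β-GFP+ cells, where with all libraries the log2 difference was -1.66 (adjusted p = 0.0815).

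**Figure D4:**
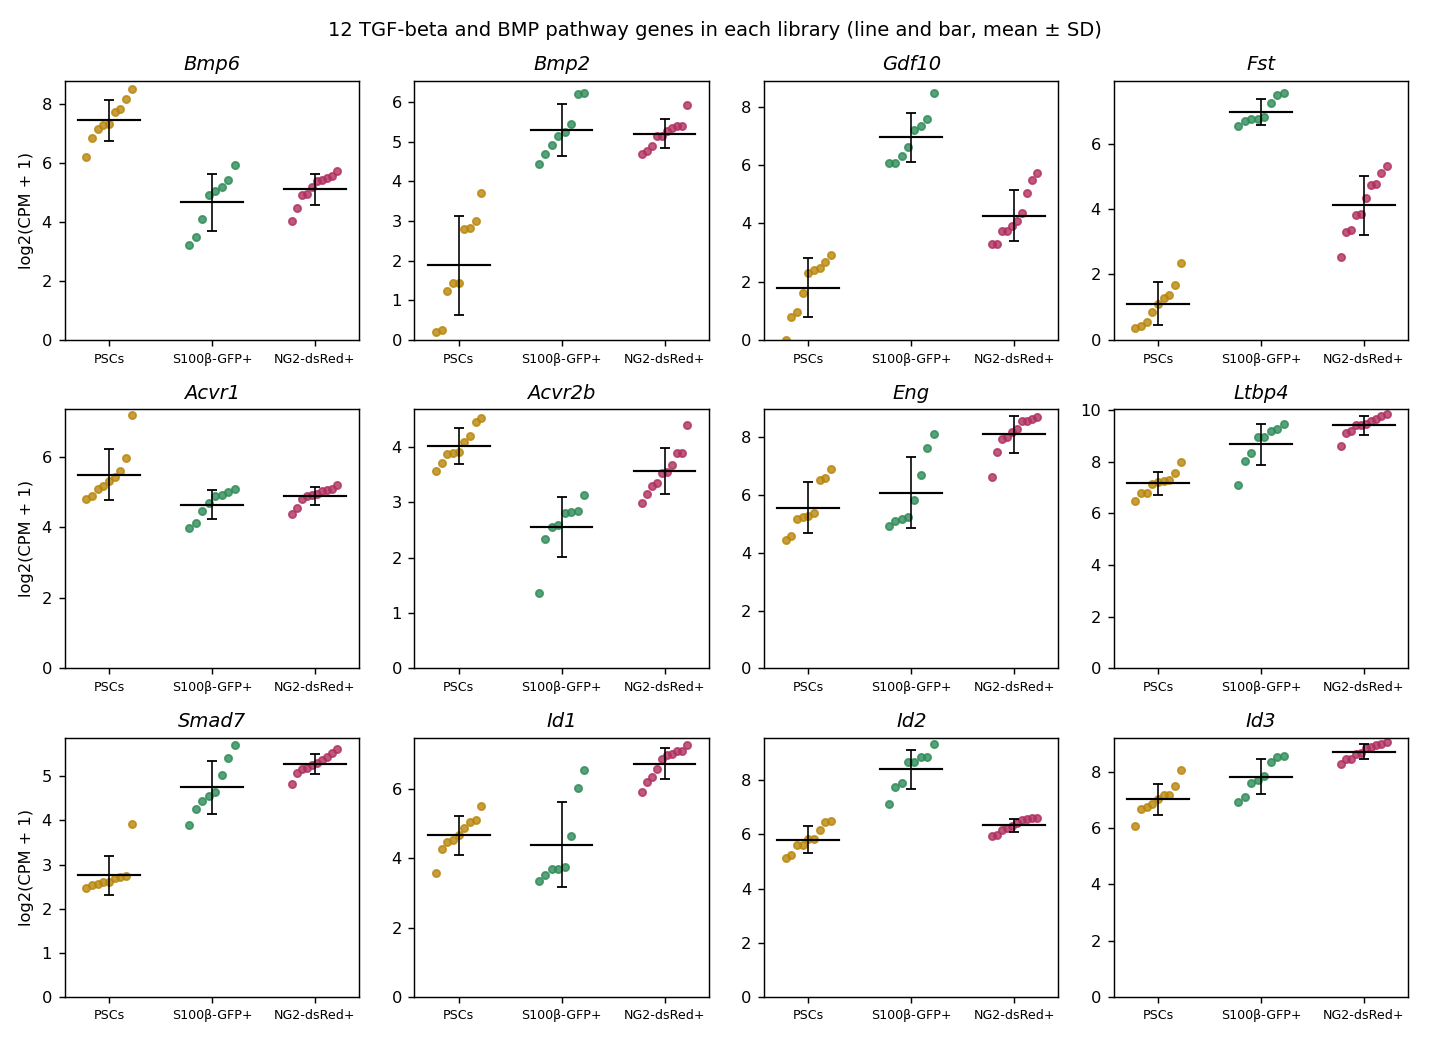
Levels of 12 pathway genes on the log2(CPM + 1) scale (y axis), 1 point per library, with the mean and SD of each cell type. PSC libraries lie above all others for Bmp6, below all others for Bmp2, Gdf10 and Fst, and below all NG2-dsRed+ libraries for Smad7, Id1 and Id3.

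Of all members, the antagonist follistatin differed most between PSCs and S100β-GFP+ cells. Fst (ENSMUSG00000021765, chr13:114452290-114458951, minus strand), whose product binds activins and myostatin and several BMPs, had 0.287 to 4.15 CPM (median 1.16) in PSC libraries, 91.5 to 187 CPM (median 109) in S100β-GFP+ libraries and 4.82 to 38.5 CPM (median 16.3) in NG2-dsRed+ libraries. The ranges of the 3 cell types did not overlap. Log2 fold changes in PSCs were -6.53 (SE 0.46, adjusted p = 1.59e-12) and -3.79 (SE 0.41, adjusted p = 1.16e-08). Over all alternatives run they stayed between -6.88 and -6.33 and between -4.11 and -3.54. Fibroblast markers had the same order of cell types by median, S100β-GFP+ above NG2-dsRed+ above PSC. Among S100β-GFP+ libraries, 14, 33 and 27 were the highest for both Fst (187, 177 and 149 CPM) and fibroblast markers (44188, 38101 and 32293 CPM) and library 3 was the lowest for both. NG2-dsRed+ library 2 was the lowest and PSC library 34 the highest of its group for both. Some libraries did not keep this order. NG2-dsRed+ library 28, the highest in fibroblast markers (19435 CPM), had 19.3 CPM of Fst, against 38.5 CPM in library 35. PSC library 12, next highest in Fst (2.19 CPM), had 1041 CPM of fibroblast markers against a PSC median of 1280 CPM. The part of fibroblast RNA in the Fst difference was not tested. Fst shares 115 exon bases with Gm47040 on the opposite strand. Bambi, a pseudoreceptor that lacks a kinase domain, had 10.7 to 59.6 CPM (median 16.5) in PSCs and 36.1 to 70.9 CPM (median 44.1) in NG2-dsRed+ cells (log2 fold change -1.08, SE 0.27, adjusted p = 0.00164). Against S100β-GFP+ cells its log2 value of -0.67 (adjusted p = 0.0548) was not past the threshold, and it was -0.95 (adjusted p = 0.00117) without PSC library 18, which was at 59.6 CPM. Noggin and gremlin were near the limit of detection and were not tested: Nog had 55 counts in the PSC libraries, 39 in the S100β-GFP+ libraries and 15 in the NG2-dsRed+ libraries, and Grem1 had 22, 51 and 2 counts.

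Of the 5 genes of latency and processing, PSCs had 4 lower than S100β-GFP+ cells, and 2 lower and 1 higher than NG2-dsRed+ cells. The shares of all genes were 24.1% lower in the first comparison, and 23.1% lower and 20.9% higher in the second. Latent TGF-beta binding proteins tether the latent ligand to matrix. Ltbp4, the most abundant of them per length in PSCs at 23.1 CPM per kb, had 88.4 to 253 CPM (median 149) in PSCs, 138 to 713 CPM (median 494) in S100β-GFP+ and 393 to 925 CPM (median 699) in NG2-dsRed+ libraries. PSC libraries were all below NG2-dsRed+ libraries and overlapped the S100β-GFP+ range. Its log2 fold changes were -1.60 (SE 0.25, adjusted p = 4.4e-06) and -2.22 (SE 0.25, adjusted p = 1.61e-08). Ltbp1 had 1.23 to 43.8 CPM (median 21.5) in PSCs and did not overlap either of the others (76.5 to 191 CPM, median 134, in S100β-GFP+ and 79.1 to 148 CPM, median 117, in NG2-dsRed+ cells). For Ltbp1 the log2 fold changes were -2.55 (SE 0.32, adjusted p = 1.09e-07) and -2.33 (SE 0.31, adjusted p = 3.48e-07). Ltbp3 differed from its relatives in direction: PSCs had a mean of 89.1 CPM, higher than the 49.6 CPM of NG2-dsRed+ cells (log2 0.84, adjusted p = 0.000235), and against the 70.1 CPM of S100β-GFP+ cells the log2 difference was 0.35 (adjusted p = 0.13). Bmp1, a metalloproteinase that processes procollagens and LTBP1, was below every S100β-GFP+ library (log2 -1.46, adjusted p = 4.3e-07) and not past the threshold against NG2-dsRed+ cells (log2 -0.09, adjusted p = 0.733). Ltbp2 was low in every cell type, with means of 0.762, 2.44 and 1.90 CPM in PSC, S100β-GFP+ and NG2-dsRed+ libraries, and its call against S100β-GFP+ cells (log2 -1.63, adjusted p = 0.0213) was lost without S100β-GFP+ library 22 (log2 -1.27, adjusted p = 0.0763).

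Of the 12 receptor genes, PSCs had 2 higher and 6 lower than S100β-GFP+ cells, and 1 higher and 5 lower than NG2-dsRed+ cells. Over all genes tested 22.9% were higher and 24.1% lower in the first comparison, and 20.9% higher and 23.1% lower in the second. Acvr1, which encodes the type I receptor ALK2 used by BMP6 and activin A, was higher than in either other population. Acvr1 (ENSMUSG00000026836, chr2:58388644-58567157, minus strand) had 26.7 to 145 CPM (median 38.8) in PSCs, 14.9 to 32.9 CPM (median 26.7) in S100β-GFP+ and 19.9 to 35.8 CPM (median 29.4) in NG2-dsRed+ libraries, so the ranges overlapped. Log2 fold changes were 1.04 (SE 0.26, adjusted p = 0.0017) and 0.81 (SE 0.24, adjusted p = 0.00736). PSC library 18 decided much of their size: at 145 CPM it lay over the next PSC library at 61.8, and without it the log2 values were 0.70 (adjusted p = 0.00126) and 0.51 (adjusted p = 0.0108). With limma-voom and sample quality weights the log2 difference from NG2-dsRed+ cells was 0.32 (adjusted p = 0.0802). Acvr2b, a type II receptor for activins and BMPs, had 10.9 to 21.9 CPM (median 14.1) in PSCs, above every S100β-GFP+ library (1.55 to 7.75 CPM, median 5.50), with a log2 fold change of 1.58 (SE 0.24, adjusted p = 3.61e-06). In NG2-dsRed+ libraries it had 6.93 to 19.9 CPM (median 10.6), and its log2 difference of 0.46 (adjusted p = 0.0907) was not past the threshold. The related type II receptor gene Acvr2a, which shares 446 exon bases with Orc4 on the opposite strand, was lower in PSCs than in both, at 9.16 to 27.4 CPM (median 17.8) against 19.2 to 58.9 CPM (median 39.3) and 24.0 to 39.5 CPM (median 29.9) (log2 -1.24, adjusted p = 7.23e-06 and -0.81, adjusted p = 0.000953).

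Bmpr1a, which encodes the BMP type I receptor ALK3, had 17.3 to 90.1 CPM (median 79.0) in PSCs, 37.1 to 87.2 CPM (median 67.4) in S100β-GFP+ and 53.7 to 94.7 CPM (median 75.7) in NG2-dsRed+ libraries. The ranges overlapped, and log2 differences of 0.12 (SE 0.20, adjusted p = 0.663) and -0.06 (SE 0.19, adjusted p = 0.837) were not past the threshold. Its relative Bmpr1b was almost undetected in PSCs, with 7 counts over 9 libraries against 88 over 8 S100β-GFP+ and 100 over 10 NG2-dsRed+ libraries. The Bmpr1b log2 fold changes were -4.18 (SE 0.83, adjusted p = 0.000117) and -3.85 (SE 0.80, adjusted p = 0.000245), for a gene whose mean was under 2 CPM in every cell type. Bmpr2, the main BMP type II receptor gene, had 13.5 to 119.8 CPM (median 96.7) in PSCs and 133 to 164 CPM (median 144) in NG2-dsRed+ libraries without overlap (log2 fold change -0.71, SE 0.23, adjusted p = 0.0117), and a log2 difference of -0.32 (adjusted p = 0.284) against S100β-GFP+ cells. Library 18 was again the lowest for Bmpr2 at 13.5 CPM, and without it the log2 fold change against NG2-dsRed+ cells was -0.49 (adjusted p = 0.00383).

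Tgfbr2, the gene of the TGF-beta type II receptor, was the most abundant receptor transcript of PSCs per length (21.2 CPM per kb). Its range was 114 to 243 CPM (median 164) in PSCs, 179 to 482 CPM (median 292) in S100β-GFP+ and 121 to 198 CPM (median 153) in NG2-dsRed+ libraries. PSCs were lower than S100β-GFP+ cells (log2 -0.83, SE 0.18, adjusted p = 0.000278) and not past the threshold against NG2-dsRed+ cells (log2 0.20, adjusted p = 0.351). The co-receptor gene Tgfbr3 had the same calls (log2 -0.94, adjusted p = 0.000709 and -0.17, adjusted p = 0.543), the first of which was lost without S100β-GFP+ libraries 14, 17 and 22 (log2 -0.56, adjusted p = 0.0520). Tgfbr1, the type I receptor gene, differed on the log2 scale by -0.49 (adjusted p = 0.0544) and -0.20 (adjusted p = 0.436). The first passed the threshold when any 1 of 4 libraries was left out (-0.57 to -0.53), with DESeq2 size factors (-0.50) and with limma-voom (-0.46). Without PSC library 18 it was -0.32 (adjusted p = 0.0622). Acvr1b, the activin type I receptor gene, was at a mean of 4.04 CPM in PSCs, and its call against S100β-GFP+ cells (log2 -0.87, adjusted p = 0.0481) was lost when any 1 of 23 of the 27 libraries was left out, with values of -0.89 to -0.68.

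Acvrl1 and Eng, the type I receptor ALK1 and its co-receptor endoglin, are best known from endothelium. Acvrl1 had 4.21 to 22.9 CPM (median 15.5) in PSC libraries, all below S100β-GFP+ (38.8 to 64.8 CPM, median 51.7) and NG2-dsRed+ libraries (50.2 to 109 CPM, median 82.2). Its log2 fold changes were -1.73 (SE 0.21, adjusted p = 4.87e-08) and -2.34 (SE 0.20, adjusted p = 1.26e-10). Eng (ENSMUSG00000026814, chr2:32646595-32682669, plus strand) had 20.8 to 119 CPM (median 37.4) in PSCs, 29.4 to 275 CPM (median 46.4) in S100β-GFP+ and 97.4 to 416 CPM (median 298) in NG2-dsRed+ libraries, with a log2 fold change of -2.42 (SE 0.43, adjusted p = 3.59e-05) against NG2-dsRed+ cells and -0.79 (adjusted p = 0.135) against S100β-GFP+ cells. In S100β-GFP+ libraries 14, 17 and 22, those with the high endothelial sums, Eng was at 102.5 to 275 CPM, and in the other 5 at 29.4 to 56.2 CPM. Without those libraries the log2 difference was 0.57 (adjusted p = 0.218). In PSC libraries 6, 18, 23 and 31 Eng was at 40.1 to 119 CPM, and in the other PSC libraries at 20.8 to 37.4 CPM. All 9 endothelial markers were higher in NG2-dsRed+ cells than in PSCs. Acvrl1 was at 38.8 to 59.9 CPM in the other 5 S100β-GFP+ libraries, whose endothelial sums were 144 to 228 CPM against a PSC median of 374 CPM. Pericyte and smooth muscle markers had median sums of 11874 CPM in NG2-dsRed+, 847 CPM in S100β-GFP+ and 1092 CPM in PSC libraries. The part of endothelial or pericyte RNA in the Acvrl1 and Eng differences was not tested.

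Of the 3 signal-carrying SMADs tested, 1 (Smad3) was lower than in both (14.4% of all genes were) and 1 (Smad5) higher than in S100β-GFP+ cells (22.9% of all genes). Smad5 was the most abundant of these in PSCs per length of exon, at 8.33 CPM per kb, followed by Smad1 at 5.79, an order that turns when the longest transcript is taken as the length. Smad1 had 23.6 to 62.0 CPM (median 33.7) in PSCs, 17.2 to 77.1 CPM (median 32.8) in S100β-GFP+ and 29.7 to 69.1 CPM (median 51.3) in NG2-dsRed+ libraries, overlapping ranges with log2 differences of -0.07 (adjusted p = 0.835) and -0.47 (adjusted p = 0.0796). Without PSC library 18, the highest at 62.0 CPM, the second was -0.52 (adjusted p = 0.0348). Against S100β-GFP+ cells Smad5 was higher on the log2 scale by 0.49 (adjusted p = 0.0375). That call was lost when any 1 of 6 libraries (S100β-GFP+ 1, 3, 17 and 33 and PSC 12 and 23) was left out, at 0.40 to 0.47. Without PSC library 18, the lowest at 18.0 CPM, it was 0.66 (adjusted p = 0.000176). The log2 difference of Smad5 from NG2-dsRed+ cells was 0.03 (adjusted p = 0.905). Smad3 was lower than in both (log2 -0.76, adjusted p = 0.0174 and -0.66, adjusted p = 0.0316). The first of these calls was lost without S100β-GFP+ library 14 (log2 -0.63, adjusted p = 0.0522), and the second when any 1 of 11 libraries was left out (-0.62 to -0.46). Smad9 did not pass the filter, with 11 counts in PSC, 91 in S100β-GFP+ and 31 in NG2-dsRed+ libraries.

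Both inhibitory SMADs, which block receptors and the SMAD complex, were lower in PSCs than in either other population (14.4% of all genes were). Smad7 had 4.57 to 14.2 CPM (median 5.05) in PSCs, 14.0 to 51.1 CPM (median 23.4) in S100β-GFP+ and 27.2 to 48.2 CPM (median 38.0) in NG2-dsRed+ libraries. Only PSC library 31, at 14.2 CPM, reached into the S100β-GFP+ range, and the next PSC library was at 5.64 CPM. The log2 fold changes were -2.20 (SE 0.24, adjusted p = 1.01e-08) and -2.65 (SE 0.24, adjusted p = 2.4e-10). Smad6, the inhibitor more closely tied to BMP signals, had 0.0956 to 5.86 CPM (median 0.842) in PSCs, 3.18 to 11.8 CPM (median 6.91) in S100β-GFP+ and 4.56 to 15.5 CPM (median 7.74) in NG2-dsRed+ libraries, again with library 31 highest among PSCs. Its log2 fold changes were -2.09 (SE 0.50, adjusted p = 0.00105) and -2.31 (SE 0.49, adjusted p = 0.000279), and without library 31 they were -2.57 and -2.79. S100β-GFP+ libraries 14, 17 and 22 were the highest of their group for both genes, at 10.9 to 11.8 CPM of Smad6 against 3.18 to 7.55 in the other 5 and at 31.9 to 51.1 CPM of Smad7 against 14.0 to 24.2. Without these 3 libraries both genes were still lower in PSCs (log2 -1.49, adjusted p = 0.0335 for Smad6 and -1.65, adjusted p = 5.94e-07 for Smad7).

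Id genes, which encode helix-loop-helix proteins that hold back differentiation, did not move as one group. Id1 and Id3 were lower in PSCs than in NG2-dsRed+ cells and Id2 was lower than in S100β-GFP+ cells. Id3 (ENSMUSG00000007872, chr4:136143497-136145755, plus strand), the most abundant per length in PSCs at 77.7 CPM per kb, had 66.7 to 265 CPM (median 131) in PSCs, 122 to 379.7 CPM (median 222) in S100β-GFP+ and 314 to 533 CPM (median 438) in NG2-dsRed+ libraries. All PSC libraries were below all NG2-dsRed+ libraries. Its log2 fold change was -1.63 (SE 0.23, adjusted p = 9.1e-07) against NG2-dsRed+ cells and -0.82 (SE 0.23, adjusted p = 0.00472) against S100β-GFP+ cells. The latter was -0.33 (adjusted p = 0.243) without S100β-GFP+ libraries 14, 17 and 22, where Id3 was at 323 to 379.7 CPM against 122 to 232 CPM in the other 5, and -0.44 (adjusted p = 0.0867) with the share of counts as a term. Id2 (ENSMUSG00000020644, chr12:25093799-25097140, minus strand) separated S100β-GFP+ cells (139.9 to 652 CPM, median 407) from PSCs (34.0 to 88.1 CPM, median 55.5) and from NG2-dsRed+ cells (60.8 to 96.6 CPM, median 81.6) without overlap. PSCs were lower than S100β-GFP+ cells (log2 -2.69, SE 0.25, adjusted p = 2.56e-10), and relative to NG2-dsRed+ cells the log2 difference was -0.48 (adjusted p = 0.0806). Within S100β-GFP+ cells Id2 was lowest in libraries 22, 17 and 14 (139.9, 214 and 236 CPM), which were also the lowest in macrophage markers (1183, 2499 and 3769.99 CPM), and library 3 was the highest in both (652 CPM of Id2 and 11053 CPM of macrophage markers). The part of macrophage RNA in the Id2 difference was not tested.

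Id1 (ENSMUSG00000042745, chr2:152736251-152737410, plus strand) gave a result that turned with 3 libraries. It had 10.8 to 44.3 CPM (median 24.3) in PSCs and 59.5 to 153 CPM (median 120.4) in NG2-dsRed+ libraries without overlap (log2 fold change -2.07, SE 0.38, adjusted p = 4.62e-05). In S100β-GFP+ libraries it had 9.06 to 91.5 CPM (median 12.2). Libraries 14, 17 and 22 were at 24.0 to 91.5 CPM and the other 5 at 9.06 to 12.3 CPM. With all libraries the log2 difference between PSCs and S100β-GFP+ cells was -0.17 (adjusted p = 0.754), and without those 3 PSCs were higher by a log2 value of 1.28 (adjusted p = 0.000265). The same 3 libraries held the high endothelial sums, and the part of endothelial RNA was not tested. Id4 was not past the threshold in either comparison, at 5.48 to 53.6 CPM (median 19.6) in PSCs, 16.3 to 65.8 CPM (median 25.6) in S100β-GFP+ and 7.71 to 44.7 CPM (median 16.3) in NG2-dsRed+ cells (log2 -0.65, adjusted p = 0.221 and 0.22, adjusted p = 0.702), and with limma-voom and sample quality weights it was lower than in S100β-GFP+ cells (log2 -1.01, adjusted p = 0.0271), as it was with the share of counts as a term (log2 -1.31, adjusted p = 0.0054).

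Bases upstream of the start site are shown for 4 members that were called here, the ligand that was higher, a ligand that was lower, an inhibitory SMAD and an Id gene. The sequences are from RefSeq (GRCm38.p6), 5′ to 3′ on the gene's strand, with capitals marking GGCGCC, a palindrome in GC-rich elements bound by BMP-type SMADs, and CAGAC or its reverse complement GTCTG, the core of the SMAD box. For Bmp6 (chr13:38345585-38345614, plus strand) and Id2 (chr12:25096306-25096335, minus strand), whose upstream windows overlap exons of GENCODE, 30 bases around the match are shown, and for Gdf10 (chr14:33923337-33923586, plus strand) and Smad6 (chr9:64022060-64022309, minus strand) the 250 bases before the start.
Bmp6: agcgcacgtgtgCAGACtgcgagtgaccgt
Id2: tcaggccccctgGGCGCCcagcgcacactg
Gdf10: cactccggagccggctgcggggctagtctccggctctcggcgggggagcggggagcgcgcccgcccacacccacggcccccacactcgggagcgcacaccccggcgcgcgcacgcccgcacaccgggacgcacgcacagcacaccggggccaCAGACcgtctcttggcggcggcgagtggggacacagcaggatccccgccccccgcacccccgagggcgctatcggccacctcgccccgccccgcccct
Smad6: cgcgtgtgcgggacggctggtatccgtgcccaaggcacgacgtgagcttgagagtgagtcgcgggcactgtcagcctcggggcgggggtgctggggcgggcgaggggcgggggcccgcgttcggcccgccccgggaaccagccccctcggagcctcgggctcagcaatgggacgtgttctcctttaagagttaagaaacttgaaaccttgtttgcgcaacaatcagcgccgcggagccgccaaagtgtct
The Bmp6 match begins 119 bases, the Gdf10 match 98 bases and the Id2 match 231 bases before the start, no motifs overlap, and the Smad6 window holds none of these letters. Of the 43 genes, 32 had a window, and 10 of their 40 windows (25.0%) held GGCGCC and 18 (45.0%) CAGAC on either strand, against 9.59% and 42.2% of all 32851 windows, untested. A match is a description of letters and not of a bound site.

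Other genes of the pathway, a list of 82 symbols of which 81 are distinct genes of the table, are given for context. Of these 56 passed the filter. PSCs had 8 of them higher, 28 lower and 20 past no threshold relative to S100β-GFP+ cells (median log2 fold change -0.66), and 11 higher, 25 lower and 20 past none relative to NG2-dsRed+ cells (median -0.35). Over all genes tested 22.9% were higher and 24.1% lower in the first comparison, and 20.9% higher and 23.1% lower in the second. PSCs were higher than both for 6 genes (Itgb8, Itgav, Rgmb, Bmper, Pmepa1 and Ccn2), as for 13.9% of all genes. They were lower than both for 22, as for 14.4% of all genes. Through which cell type these genes reached the filter was not examined, so the counts are a description.
The largest increase was in Itgb8. Its product, integrin beta 8, pairs with the integrin alpha v encoded by Itgav to release active TGF-beta from the latent complex. Itgb8 had 39.1 to 192 CPM (median 126) in PSCs, 7.06 to 51.5 CPM (median 17.9) in S100β-GFP+ and 3.55 to 7.47 CPM (median 5.75) in NG2-dsRed+ libraries, and PSC libraries lay above all NG2-dsRed+ libraries. Its log2 fold changes were 2.64 (SE 0.32, adjusted p = 6.37e-08) and 4.45 (SE 0.32, adjusted p = 2.73e-12). Itgav had means of 140.2, 89.0 and 63.7 CPM in PSC, S100β-GFP+ and NG2-dsRed+ libraries (log2 0.66, adjusted p = 0.00321 and 1.14, adjusted p = 2.18e-06). Rgmb, a BMP co-receptor gene, was higher on the log2 scale by 1.40 (adjusted p = 3.19e-06) and 0.96 (adjusted p = 0.000201), and Bmper, whose product binds BMPs outside the cell, by 1.58 (adjusted p = 0.000473) and 3.74 (adjusted p = 9.04e-10). Among targets known from other cells, Ccn2 had 296 to 802 CPM (median 354) in PSCs and was higher (log2 1.76, adjusted p = 2.63e-05 and 1.69, adjusted p = 1.73e-05), while Tgfbi (log2 -2.75, adjusted p = 7.27e-07 and -2.11, adjusted p = 2.22e-05) was lower.
Genes at least 4-fold lower in PSCs than in both included Nrros and Lrrc32, which anchor latent TGF-beta to the cell surface. Nrros, known from macrophages and microglia, had 0.316 to 13.0 CPM (median 1.30) in PSCs against 26.7 to 184 CPM (median 77.6) in S100β-GFP+ and 7.44 to 24.9 CPM (median 16.9) in NG2-dsRed+ libraries. For Nrros the log2 fold changes were -4.81 and -2.50, and for Lrrc32 -2.60 and -4.09. The matrix genes Fbn1 (-4.71 and -2.16) and Dcn (-3.66 and -2.84), Thbs1 (-2.89 and -3.10), the BMP antagonist gene Nbl1 (-3.62 and -3.20), Kcp (-3.04 and -2.86) and the protease gene Tll1 (-3.26 and -2.44) were also among them, with log2 fold changes in parentheses, as was Tgfbi. Dcn is also one of the fibroblast markers, which were lower in PSCs than in either other population, as given above. Macrophage sums were lower in PSC than in S100β-GFP+ libraries, and their median was higher in PSC (129 CPM) than in NG2-dsRed+ libraries (35.1 CPM).

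S100β-GFP+ and NG2-dsRed+ cells were compared as the third pair of cell types, in which positive values are higher in S100β-GFP+ cells. Of the 40 tested members, 9 were higher in S100β-GFP+ cells, 10 lower and 21 not past the threshold (33.3% of all genes were called, 18.1% higher and 15.2% lower). Fst (log2 2.74, SE 0.36, adjusted p = 5.39e-07), Gdf10 (log2 2.73, SE 0.46, adjusted p = 2.09e-05) and Id2 (log2 2.20, SE 0.23, adjusted p = 9.96e-09) were the members higher in every S100β-GFP+ library than in every NG2-dsRed+ library, and Bmp5 (log2 -2.88, SE 0.52, adjusted p = 5.68e-05) and Gdf11 (log2 -1.88, SE 0.32, adjusted p = 2.62e-05) those lower in every one (groups without overlap made up 11.6% of all genes). Bmp5 reached the filter on low counts through NG2-dsRed+ cells alone, so its call and separation here are a description. Bmp6, highest in PSCs, did not pass the threshold between the other cell types (log2 -0.29, SE 0.32, adjusted p = 0.547), and was lower in S100β-GFP+ cells without libraries 14, 17 and 22 (log2 -0.91, adjusted p = 0.0425). Bmp2 (log2 0.18, adjusted p = 0.787), Ltbp1 (log2 0.22, adjusted p = 0.62) and Smad6 (log2 -0.21, adjusted p = 0.771), low in PSCs, were not past the threshold between them either.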

How the data were processed

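RNA-seq was done on PSCs, S100β-GFP+ cells and NG2-dsRed+ cells sorted from muscle of S100β-GFP;NG2-dsRed mice. The authors used ea-utils and Btrim for trimming, HISAT2 for alignment (build GRCm38 in the submitters' processing notes) and HTSeq for counting, and the deposited values are whole-number counts without normalization. The sources used here give no tool versions and do not say whether reads were counted by strand, and 15 of the 43 members share exon bases with another gene, 5 of them with a protein-coding one, so these counts are uncertain. The library number in a column's name tied it to its sample, for 27 of the 36 libraries labelled (9 of 12 PSC, 8 of 12 S100β-GFP+ and 10 of 12 NG2-dsRed+), and the rest were not analysed here. The study's text counts 7 S100β-GFP+ replicates after quality control without naming which, so all 8 were used. The labels' age field begins with day 15 in each library and its second number climbs with the library number from 21 to 46, so age was not used. Symbols, positions and exon lengths came from GENCODE M21, and levels between genes are CPM per kb of the union of exons.

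In R 4.3.3 with edgeR 4.0.16, TMM normalization, filterByExpr (minimum count 10, 15330 genes kept) and 1 quasi-likelihood fit of all 27 libraries were used, so that the cell types share an estimate of the spread, with Benjamini-Hochberg adjustment over all genes at 0.05. SE is the standard error of the log2 fold change. Members, lists and tests were chosen with earlier results of these data known. All members were described by role, with full statistics for those at least 4-fold changed (log2 of 2) in 1 of the PSC comparisons and for the highest of each role per length. Others with full statistics, such as Acvr1, Acvr2b, Inhba and Bmpr1a, were chosen after their values were seen, as were Txndc5 and those other pathway genes under a 4-fold change that are named. Some genes that the same rules would name are not reported here. Alternatives were DESeq2 1.42.0 (Wald test), its size factors in place of TMM, all genes unfiltered, only the cell types compared, limma 3.58.1 (voom with sample quality weights), a term for the share of Lars2, Gm23935 and Gm15564 in each library, fits without S100β-GFP+ libraries 22 or 14, 17 and 22, and leaving out each library. A fit without PSC libraries 18 and 31 was added after seeing the data. The scripts were tested on simulated data. No pair of replicates was identical, and each of the 109 pairs differed by more than sampling noise (lowest ratio of chi-square to its degrees of freedom 8.92). Genes at a few CPM rest on few counts at this depth.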

Additional observations from a re-analysis of the deposited data

Results flagged for a closer look

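Across 129 combinations of a pathway gene and a cell type, 20 had a library whose gap to its nearest neighbour was large for the range of its group by Dixon's test at 95%. Chance alone flags about 1 in 20 where values are independent and normally distributed. CPM values need not be so distributed, and genes of 1 library are not independent, so no excess over chance is read from these flags. Library 18 of the PSCs accounted for 7 of them, being low for Tgfbr1 (7.88 CPM, next 29.2), Bmpr1a (17.3, next 67.7), Bmpr2 (13.5, next 75.5) and Smad5 (18.0, next 56.8) and high for Acvr1 (145, next 61.8), Smad1 (62.0, next 41.8) and Bambi (59.6, next 25.0). PSC library 31, the one with chondrocyte and tenocyte markers, was high for Smad6 (5.86 CPM, next 2.72) and Smad7 (14.2, next 5.64). Other PSC libraries were high for low-count genes, library 4 for Inhbb (2.68 CPM, next 0.605), library 36 for Ltbp2 (3.05, next 0.861) and library 34 for Fst (4.15, next 2.19).

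S100β-GFP+ library 14 was high for Tgfbr1 (68.6 CPM, next 48.7) and Smad3 (42.9, next 28.9), library 22 for Gdf10 (352, next 189) and library 33 for Gdf11 (18.2, next 9.14). In NG2-dsRed+ cells library 28 was high for Inhba (51.4 CPM, next 28.1) and Bmp7 (25.3, next 9.22), library 2 for Bmp2 (60.0, next 41.3) and library 35 for Bmp4 (42.2, next 26.6). The reasons for these values were not tested.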

How the results depend on the processing

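Of 120 results for single members (40 genes in 3 comparisons), 71 were past the threshold, and 55 of these kept direction and call under all 35 alternatives that gave a value, among them Bmp6, Fst, Gdf10, Bmp2, Ltbp1, Acvrl1, Smad6 and Smad7 in both PSC comparisons. Of these named genes, Bmp2, Gdf10, Smad6 and Fst did not reach the filter on low counts through PSCs. Their kept calls are therefore a description and not support for a difference. Id1 between PSCs and S100β-GFP+ cells reversed from -0.17 to 1.28 without S100β-GFP+ libraries 14, 17 and 22. Another 41 changes of sign were of values not past the threshold on either side. Without those 3 libraries 10 calls were lost, with the share of counts on 3 genes as a term 8, with only the cell types compared 4, and at most 3 with DESeq2, DESeq2 size factors, limma-voom, no filter or without PSC libraries 18 and 31. With limma-voom 17 results passed the threshold that had not, more than in any other alternative. With each library left out in turn, calls of members numbered 25 to 28 against S100β-GFP+ cells, 23 to 26 against NG2-dsRed+ cells and 17 to 22 between the other cell types. Calls lost in this way and not given above were Inhbb against NG2-dsRed+ cells (without PSC libraries 12, 20, 34 or 36, -1.87 to -1.77) and, between S100β-GFP+ and NG2-dsRed+ cells, Ltbp3 (5 libraries, 0.43 to 0.48), Ltbp4 (22 libraries, -0.64 to -0.49) and Tgfb1 (S100β-GFP+ library 3, 0.62). The fit without a filter on low counts tested every gene with a count in any library in place of the 15330 kept. Its counts are therefore not of the same set of genes. In that fit the number of all genes called rose from 7198 to 16556 between PSCs and S100β-GFP+ cells (3907 higher and 12649 lower in PSCs). The rise was from 5099 to 10586 between S100β-GFP+ and NG2-dsRed+ cells (8194 higher and 2392 lower in S100β-GFP+ cells), and the cause was not tested. With DESeq2's Wald test 4187 were higher and 2270 lower in the latter comparison, against 2771 and 2328. No paired analysis was possible because each library has a number of its own and the sources used here do not tie libraries of different cell types to a mouse. Members under about 2 CPM, such as Bmpr1b, Inhbb and Ltbp2, rest on few counts, and depth limits their fold changes.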
